A study of Sus scrofa with 6 samples.

Results

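The genes described here encode plasma proteins of the acute phase that the liver secretes. They are the serum amyloids SAA2, SAA3 and SAA4, the pentraxin CRP, the lipopolysaccharide-binding protein LBP and the orosomucoid ORM1. The members were the rows of the deposited liver table that carry these symbols, and all 6 were found among its 17109 genes. RNA of livers from Bama minipigs was sequenced in 3 ASGR1+/- animals (S03, S04 and S05) and 3 WT animals (WT1, WT2 and WT3). ASGR1 encodes the main subunit of the hepatic asialoglycoprotein receptor, a lectin that clears glycoproteins that have lost their sialic acid. The ASGR1+/- pigs carried 1 allele with a CRISPR/Cas9 deletion that runs from an intron into the exon behind it, in every cell of the body, and the line goes back to cloned founders made from edited fetal fibroblasts. Both groups consisted of young pigs that were fasted overnight before the liver was taken, and the age of each animal was not given. Each library came from 1 animal, so the tests measure the spread between these few animals. The study set S03 aside after principal component analysis, and S04 and S05 against WT is therefore the main comparison, with S03 shown beside it. Both comparisons use the same WT livers.

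The acute phase is the change in plasma proteins that follows infection or tissue injury. Cytokines such as IL-6 and IL-1 act on hepatocytes, mainly through STAT3, NF-kB and C/EBP factors, and raise the transcription of positive acute-phase genes while albumin and other negative acute-phase genes fall. Serum amyloid A proteins travel on high-density lipoprotein, and in several mammals they are among the steepest responders of the liver. CRP binds phosphocholine on microbes and damaged cells and recruits complement C1q. LBP hands lipopolysaccharide to CD14, which passes it to TLR4. ORM1, or alpha-1-acid glycoprotein, is a heavily glycosylated lipocalin that carries basic drugs, and its desialylated form is a classical ligand of the asialoglycoprotein receptor.

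Library totals lay between 15397777 and 16237729 estimated counts. S03 stood apart in other ways too. Genes of chromosome Y summed to 45.29 CPM in S03 and to 435.5 to 468.7 CPM in the other 5 libraries, where CPM, counts per 1000000, is the count relative to the TMM-adjusted total of its library. The study states that 1 of its pigs was female, and the labels give no sex. If S03 was that pig, sex could not be told apart from the other ways in which S03 differed. ASGR1 itself had a log2 fold change of ASGR1+/- over WT (log2FC, given below with its standard error, SE) of -0.17 without S03 (edgeR adjusted p = 0.653), and counts over the whole gene cannot separate the edited allele from the intact one. Over all genes tested, the median log2FC was 0.003 without S03 and 0.023 with all 6 libraries.

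SAA2 and SAA3 were far higher in S04 and S05 than in any WT liver, whereas S03 was near WT for both. CRP and LBP also lay above all WT livers in S04 and S05, though S04 exceeded the highest WT liver only narrowly. ORM1 lay below all WT livers, and SAA4 overlapped them. Of the 6 genes, 1 passed the edgeR test without S03 (SAA2, adjusted p of 0.05 or less), in a comparison where 0.792% of all genes tested passed. At unadjusted p under 0.05 the count was 3 higher and 1 lower, beside 8.88% of all genes higher and 12% lower. DESeq2, a more permissive test in these data, called SAA2 and SAA3 higher and ORM1 lower, where 9.57% of all genes were called. The libraries of S04 and S05 did not overlap those of WT for 5 of the 6 genes, against 39.1% of all genes tested. A change in bulk liver RNA cannot tell fewer cells of a type from less RNA per cell.

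**Figure D1:**
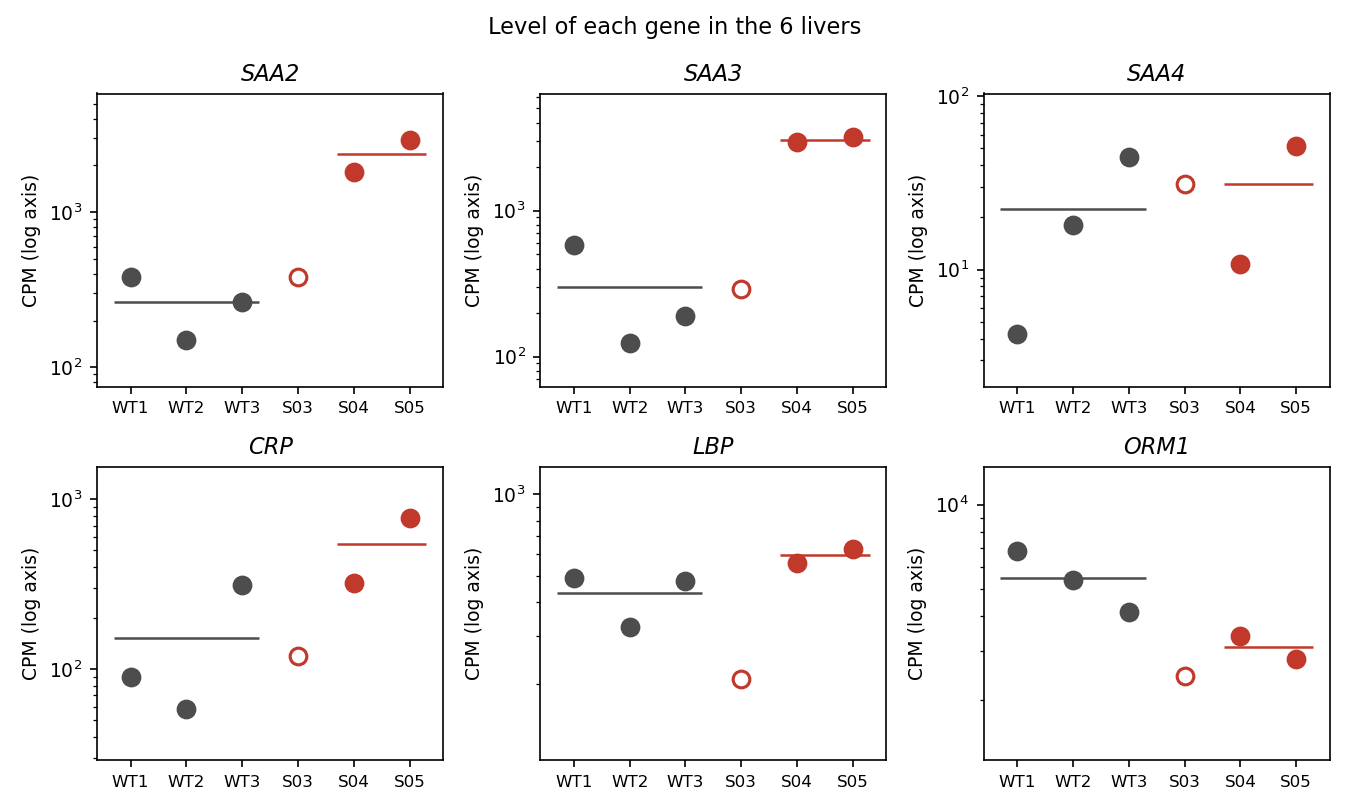
CPM on a log axis for each of the 6 genes in each liver, with WT in grey, S04 and S05 as filled red points, S03 as an open red point and horizontal lines at the means of WT (n = 3) and of S04 and S05 (n = 2). SAA2 and SAA3 of S04 and S05 lie far above every other liver, ORM1 lies below WT in all 3 ASGR1+/- livers, and S03 is the lowest liver for LBP and ORM1.

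SAA2 (gene ID 100525680, Sscrofa11.1 chromosome 2, 40972797 to 40976222) encodes an inducible serum amyloid A. Its level was 1820.6 CPM in S04 and 2908.3 CPM in S05, whereas WT1, WT2 and WT3 had 380.7, 150.1 and 262.1 CPM. S03 had 384.7 CPM, a value next to WT1. The S04 and S05 mean was 2364.5 ± 769.1 CPM (SD, n = 2) and that of WT 264.3 ± 115.3 CPM (SD, n = 3), so the gap exceeded the SD of either group. The log2FC was 3.16 ± 0.42 (SE), an 8.95-fold difference (adjusted p = 0.0399 by edgeR and 4.37e-12 by DESeq2). The edgeR call was near its threshold and was lost without S04 (adjusted p = 0.0689), S05 (0.151), WT2 (0.0971) or WT3 (0.0579), while the log2FC stayed at 2.80 or more. Without S04 or S05 the ASGR1+/- arm is 1 library, assumed to vary like WT, and edgeR then called 2 and 0 genes of the whole table, so those losses say little about SAA2 itself. With S03 in the ASGR1+/- group the log2FC was 2.69 ± 0.70 (SE, adjusted p = 0.137 by edgeR and 0.000494 by DESeq2).

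SAA3 (gene ID 733603) lies on the same chromosome from 41021349 to 41025950. Its relative in the mouse is made in the liver and also in macrophages and fat. SAA3 reached 2937.0 CPM in S04 and 3163.1 CPM in S05, whereas WT1, WT2 and WT3 had 580.2, 124.4 and 189.8 CPM and S03 had 291.8 CPM. S04 and S05 were close to each other, and the WT livers differed among themselves by a factor of 4.66 between highest and lowest. The log2FC was 3.36 ± 0.62 (SE), with a wider error than that of SAA2, and it did not pass edgeR (adjusted p = 0.0618, against 0.00415 from DESeq2). Without WT1, the highest of the WT livers for SAA3, it passed edgeR with a log2FC of 4.29 (adjusted p = 0.0189). With all 6 libraries the log2FC was 2.84 ± 0.92 (SE, adjusted p = 0.199 from edgeR).

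The division of reads between SAA2 and SAA3 is uncertain. Their estimated counts were fractional in all 6 libraries, but the sum of the pair was a whole number in each one, from 3975 in WT2 to 97977 in S05. SAA3 held 61.7% of the sum in S04 and 52.1% in S05, and 60.4%, 45.3% and 42.0% in WT1, WT2 and WT3. The split therefore overlapped between groups. Summed into 1 row, the pair gave a log2FC of 3.27 (edgeR adjusted p = 0.0498) in the main comparison and 2.77 (adjusted p = 0.165) once S03 was included.

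**Figure D2:**
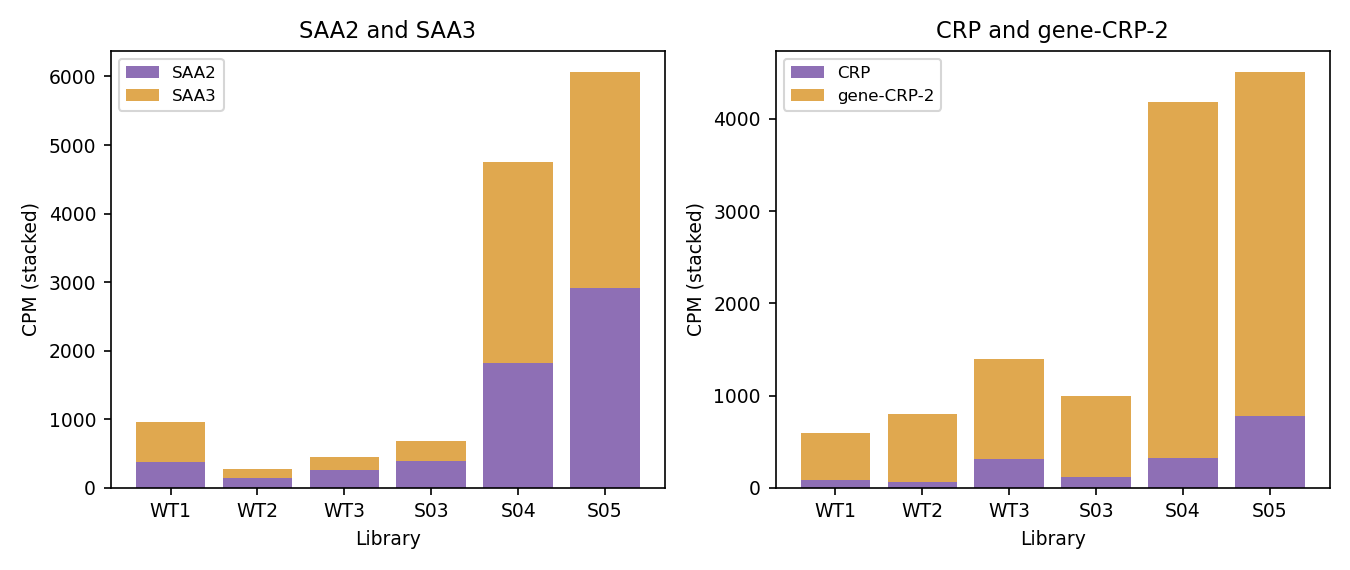
Stacked CPM of SAA2 and SAA3 (left) and of CRP and the row named gene-CRP-2 (right) in each library, on linear axes from 0. The SAA2 and SAA3 bars of S04 and S05 are several times those of the other 4 livers, and gene-CRP-2 makes up most of the CRP signal in every liver.

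SAA4 (gene ID 100526034, chromosome 2, 40986869 to 41003059) sits between SAA2 and SAA3, and in humans it is the constitutive serum amyloid. Its level was 10.73 CPM in S04 and 51.8 CPM in S05, whereas WT1, WT2 and WT3 had 4.23, 18.16 and 44.77 CPM and S03 had 31.14 CPM. The groups overlapped, with S04 within the WT range and S05 above it, and the WT livers alone spanned a factor of 10.6. The log2FC of 0.49 was smaller than its standard error of 0.93 (adjusted p = 0.799 from edgeR), and its sign turned to -1.03 without S05. SAA4 thus did not follow its neighbours on either side. A further gene located between SAA4 and SAA3, LOC102165880 (41007750 to 41008993), whose symbol does not say what it encodes, was named here after its values were seen. It had 47.7 CPM in S04 and 40.9 CPM in S05, above 6.91 to 22.0 CPM in WT, with 10.7 CPM in S03, and a log2FC of 1.59 (adjusted p = 0.107 by edgeR and 0.00836 by DESeq2).

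CRP (gene ID 100620468) lies on chromosome 4 from 90782741 to 90785051. It measured 320.8 CPM in S04 and 775.6 CPM in S05, whereas WT1, WT2 and WT3 had 90.31, 58.14 and 310.9 CPM and S03 had 119.7 CPM. S04 exceeded WT3 by a factor of only 1.03, so the separation of the groups rested mainly on S05. The mean was 548.2 ± 321.6 CPM (SD, n = 2) against 153.1 ± 137.6 CPM (SD, n = 3) in WT. For CRP the log2FC was 1.84 ± 0.71 (SE, adjusted p = 0.208 by edgeR and 0.319 by DESeq2), and 1.40 with all 6 libraries (adjusted p = 0.434 from edgeR). Without S05 it was 1.09 and without WT3 it was 2.88, so that these animals set much of its size.

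The table holds another row for this pentraxin, named gene-CRP-2 (gene ID 396842, chromosome 4, 90793361 to 90801020), to which RefSeq also gives the symbol CRP. It is not among the 6 members and was named after its values were seen. gene-CRP-2 was the more abundant of the pair, with 3868.2 CPM in S04 and 3738.6 CPM in S05, whereas WT1, WT2 and WT3 had 505.3, 744.4 and 1082.5 CPM and S03 had 879.6 CPM. S04 and S05 were nearly equal and stood clear of every WT liver, unlike the row named CRP. Its log2FC was 2.29 ± 0.33 (SE, adjusted p = 0.0455 by edgeR and 2.01e-09 by DESeq2). That call was lost without WT1 (0.0572) or WT2 (0.133), with log2FCs of 2.07 or more. Without S04 or S05 a single ASGR1+/- library remained, too few to judge the call, and the log2FC was 2.27 and 2.33. The log2FC was 1.86 with all 6 libraries (adjusted p = 0.176). The counts of both rows were whole, and their sum gave a log2FC of 2.23 (edgeR adjusted p = 0.0523). APCS, the related pentraxin serum amyloid P on the same chromosome, had 1342.6 CPM in S04 and 499.2 CPM in S05 against 201.3 to 434.9 CPM in WT and 677.1 CPM in S03, with a log2FC of 1.44 (adjusted p = 0.157 by edgeR and 0.0286 by DESeq2) that was 0.55 without S04.

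LBP (gene ID 397303) lies on chromosome 17 from 41398935 to 41429467. It had 558.5 CPM in S04 and 631.1 CPM in S05, whereas WT1, WT2 and WT3 had 490.3, 322.5 and 479.1 CPM. S04 and S05 were above WT by little, whereas S03, at 208.7 CPM, was the lowest of the 6 livers. This gave a log2FC of 0.47 ± 0.24 (SE, adjusted p = 0.328 by edgeR and 0.288 by DESeq2). With S03 included it shrank to 0.11 with a standard error of 0.40 (adjusted p = 0.916 from edgeR). LBP was also the most even of the 6 genes among the WT livers, with a factor of 1.52 between highest and lowest.

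ORM1 (gene ID 396901, chromosome 1, 254939154 to 254943065) went the other way. It had 3383.1 CPM in S04, 2798.4 CPM in S05 and 2441.6 CPM in S03, whereas WT1, WT2 and WT3 had 6820.1, 5392.1 and 4136.2 CPM. All 3 ASGR1+/- livers were below all 3 WT livers, so ORM1 is the one gene of the 6 for which S03 clearly stood with S04 and S05. Means were 3090.7 ± 413.4 CPM (SD, n = 2) for S04 with S05 and 5449.5 ± 1342.9 CPM (SD, n = 3) for WT. ORM1 had a log2FC of -0.82 ± 0.30 (SE) without S03 (adjusted p = 0.185 by edgeR and 0.0420 by DESeq2). With all 6 libraries it was -0.92 with a standard error of 0.27 (adjusted p = 0.170 by edgeR and 0.0112 by DESeq2). Its end overlaps the start of AKNA in the annotation, and AKNA was at a small fraction of its level in every liver.

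**Figure D3:**
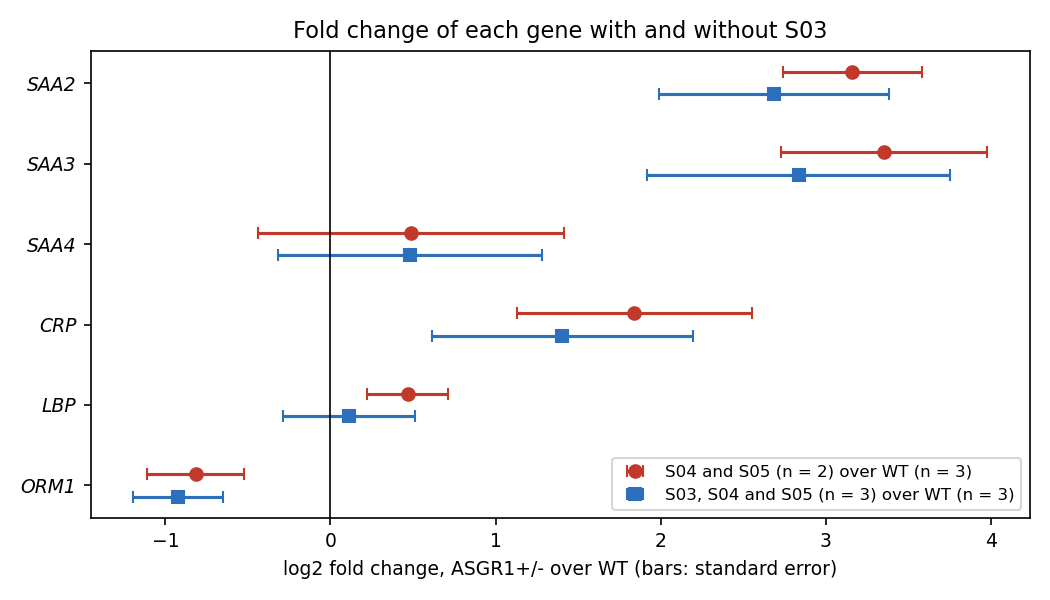
log2FC of each gene (horizontal axis, ASGR1+/- over WT) from edgeR, with bars of 1 standard error, without S03 (circles) and with all 6 libraries (squares). SAA2 and SAA3 lie above 3 without S03 and move toward 0 with it, LBP moves from 0.47 to 0.11, and ORM1 is negative in both.

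With all 6 libraries, 0 of the 6 genes passed edgeR (0.136% of all genes did), unadjusted p under 0.05 was found for 2 higher and 1 lower (6.68% and 9.45% of all genes), and DESeq2 called SAA2 higher and ORM1 lower (5.65% of all genes called). The groups did not overlap for 2 of the 6, SAA2 and ORM1, against 21.8% of all genes tested, and for SAA2 the margin of S03 over WT1 was slight. S03 therefore differed from S04 and S05 gene by gene. It was within the WT range for SAA3, SAA4 and CRP, below it for LBP and ORM1, and just above it for SAA2. This placing of a single library was not tested.

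Levels of different genes were compared on the TPM scale, which allows for gene length. In the 3 WT livers ORM1 came first of the 6, with 16901.8 TPM in WT1, 11626.5 in WT2 and 7826.9 in WT3, and it ranked between 6 and 17 among all 17109 genes. SAA3 and SAA2 followed at 528.9 to 2683.8 TPM and 527.4 to 1575.5 TPM, and these ranges overlapped. In S04 the order changed to SAA3 (12981.5 TPM), ORM1 (7638.6) and SAA2 (6870.4), and in S05 to SAA3 (16492.8), SAA2 (11454.7) and ORM1 (6632.3). SAA3 then ranked 10 in S04 and 8 in S05 among all genes, compared with ranks from 52 to 261 in WT and 73 in S03. SAA2 and SAA3 together took 1.99% of all TPM in S04 and 2.79% in S05, but 0.106% to 0.426% in WT and 0.344% in S03. LBP followed with 290.7 to 499.0 TPM in WT and 522.0 and 624.4 TPM in S04 and S05. CRP and SAA4 were lowest, at 42.65 to 199.0 TPM and 13.38 to 107.5 TPM in WT, and their order was reversed in WT2. The SAA3 level in TPM carries an extra uncertainty, because the gene length implied by its count and FPKM varied from 248 to 317 bases between libraries, by a factor of 1.28, against 1.01 to 1.06 for the other 5 genes.

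The 6 genes did not vary as 1 block. Over the 6 livers the Pearson correlation of log2 CPM was 0.98 between SAA2 and SAA3, 0.82 between SAA2 and CRP, and 0.72 between SAA3 and CRP. SAA4 correlated with SAA2 at 0.14 and with SAA3 at -0.07. ORM1 had a correlation of -0.54 with SAA2 and 0.20 with LBP. These values rest on 6 points that share groups and libraries, the SAA2 and SAA3 counts are not independent, and they are given as a description.

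Correlations picked as the highest of many over 6 points are high through the choice itself, and those below are a description without a test. The genes with the most similar patterns were sought among 3706 genes with an SD of log2 CPM of at least 0.5 over the same 6 livers. For SAA2 they were GALNT2 (r = 0.998), which starts mucin-type O-glycosylation, SBNO2 (0.997), a transcriptional coregulator induced by IL-10 and IL-6 signalling, and the ETS-family repressor ETV6 (0.995). For SAA3 they were the mitochondrial superoxide dismutase SOD2 (0.988), the AP-1 family factor BATF (0.987) and again GALNT2 (0.984). SOD2 had 375.5 CPM in S04 and 441.5 CPM in S05 against 64.6 to 138.8 CPM in WT and 102.1 CPM in S03.

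CRP was closest to the IL-1 receptor gene IL1R1 (0.998), the ESCRT factor IST1 (0.997) and the exonuclease AEN (0.983). IL1R1 had 665.6 CPM in S04 and 1012.0 CPM in S05, whereas WT1, WT2 and WT3 had 319.4, 237.8 and 595.6 CPM, so it shared with CRP both the high WT3 and the higher S05. For SAA4 the closest rows were FAM160A1 (0.976), LOC100525112 (0.975) and LOC100151901 (0.955). LBP was closest to MASP2 (0.967), a protease of the lectin pathway of complement, the glucose transporter gene SLC2A4 (0.953) and CAMK2N1 (0.943), and all 3 were lowest in S03, by a narrow margin for CAMK2N1. For ORM1 they were C9H11orf54 (0.989), PBLD (0.985) and the hydroxylysine kinase HYKK (0.978), each below every WT liver in S03, S04 and S05.

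The other positive acute-phase proteins give the setting of these genes. Of 27 genes listed, 24 were tested. In edgeR 2 passed as higher in S04 and S05 (ITIH4 and LCN2) and 0 as lower, beside 0.792% of all genes called. An unadjusted p under 0.05 was reached by 9 higher and 0 lower genes (8.88% and 12% of all genes). The median log2FC of the 24 was 0.51, beside 0.003 over all genes. By sign, 19 of the 24 were higher and 5 lower. ITIH4, which in pigs is the major acute-phase protein, had 22657.4 CPM in S04 and 28203.2 CPM in S05, whereas WT1, WT2 and WT3 had 5993.0, 3654.6 and 3505.6 CPM and S03 had 5504.6 CPM. Its log2FC was 2.54 ± 0.33 (SE, edgeR adjusted p = 0.0399). S03 again lay within the WT range, as it did for SAA3. LCN2, the siderophore-binding lipocalin, had 105.7 and 161.4 CPM in S04 and S05 against 0.898 to 2.08 CPM in WT and 3.40 CPM in S03, a log2FC of 6.62 ± 0.39 (SE, edgeR adjusted p = 0.00855). Without WT1 edgeR called both of this pair, without WT3 only LCN2, and without WT2 LCN2 and HAMP. Without S04 or S05 a single ASGR1+/- library remained, too few to judge the calls. The log2FC of ITIH4 was then 2.69 and 2.38, and that of LCN2 was 6.29 without S05.

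HAMP, which encodes the iron hormone hepcidin, had 210.5 and 135.5 CPM in S04 and S05, 32.38 CPM in S03, 7.18 CPM in WT2 and 0.179 and 0.144 CPM in WT1 and WT3 (log2FC 6.13, standard error 1.22, adjusted p = 0.0698 from edgeR). Its size rested on WT2, without which the log2FC was 9.99 (edgeR adjusted p = 0.00734), and limma-voom and limma on log2(TPM + 0.1) and log2(TPM + 1) gave 8.06, 8.29 and 7.89. HP, or haptoglobin, was far more abundant, with 35180.3 and 38927.0 CPM in S04 and S05 against 20273.2 to 26826.6 CPM in WT (log2FC 0.63, edgeR adjusted p = 0.267). The fibrinogen chains FGA, FGB and FGG had log2FCs of 1.09, 0.98 and 1.13 (adjusted p = 0.170, 0.203 and 0.149 from edgeR). DESeq2 called 10 genes of the list higher, these 3 and HAMP, HP, ITIH4 and LCN2 among them. Over all genes DESeq2 called 9.57%, in either direction. With all 6 libraries 0 genes of the list passed edgeR, and the median log2FC was 0.31. At unadjusted p under 0.05, 5 were higher (6.68% of all genes), and DESeq2 called 3 higher (5.65% of all genes called).

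The 9 negative acute-phase proteins were all lower in S04 and S05 than in every WT liver, with a median log2FC of -2.21. Over all genes tested, 39.1% did not overlap between these groups, in either direction. None passed edgeR after adjustment (0 of 9), and all 9 were lower at unadjusted p under 0.05 (12% of all genes). DESeq2 called all 9 lower, beside 9.57% of all genes called in either direction. A single gene passed edgeR without WT1 (ALB, log2FC -3.32, adjusted p = 0.0290), without WT3 (FETUB) and with library totals in place of TMM (TTR, for transthyretin, log2FC -2.07, adjusted p = 0.0499). FETUB, which encodes fetuin-B, had 29.26 and 24.79 CPM in S04 and S05 against 129.5 to 532.8 CPM in WT, with a log2FC of -3.34 (edgeR adjusted p = 0.0703) that was -2.43 without WT3 (adjusted p = 0.0175). ALB, for albumin, had 9049.4 and 12415.4 CPM whereas WT1, WT2 and WT3 had 33493.6, 100902.0 and 114480.0 CPM and S03 had 28428.1 CPM (log2FC -2.95, edgeR adjusted p = 0.0708). SERPINA6, for corticosteroid-binding globulin, had a log2FC of -2.58 (edgeR adjusted p = 0.0608). WT1 had the highest SAA2, SAA3 and ORM1 of the WT livers and the lowest ALB. In humans ORM1 is counted with the positive acute-phase proteins, and its class in pigs was not examined here. In these livers ORM1 had the sign of the negative ones. It shared this with 5 of the 24 tested genes of the other positive list, against 19 higher. FN1, 1 of these 5, also lay below every WT liver in S03, S04 and S05 (log2FC -0.44, edgeR adjusted p = 0.353). With all 6 libraries the median of the negative list was -1.72, and 0 passed edgeR. At unadjusted p under 0.05, 8 were lower (9.45% of all genes), and DESeq2 called 8 lower (5.65% of all genes called).

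**Figure D4:**
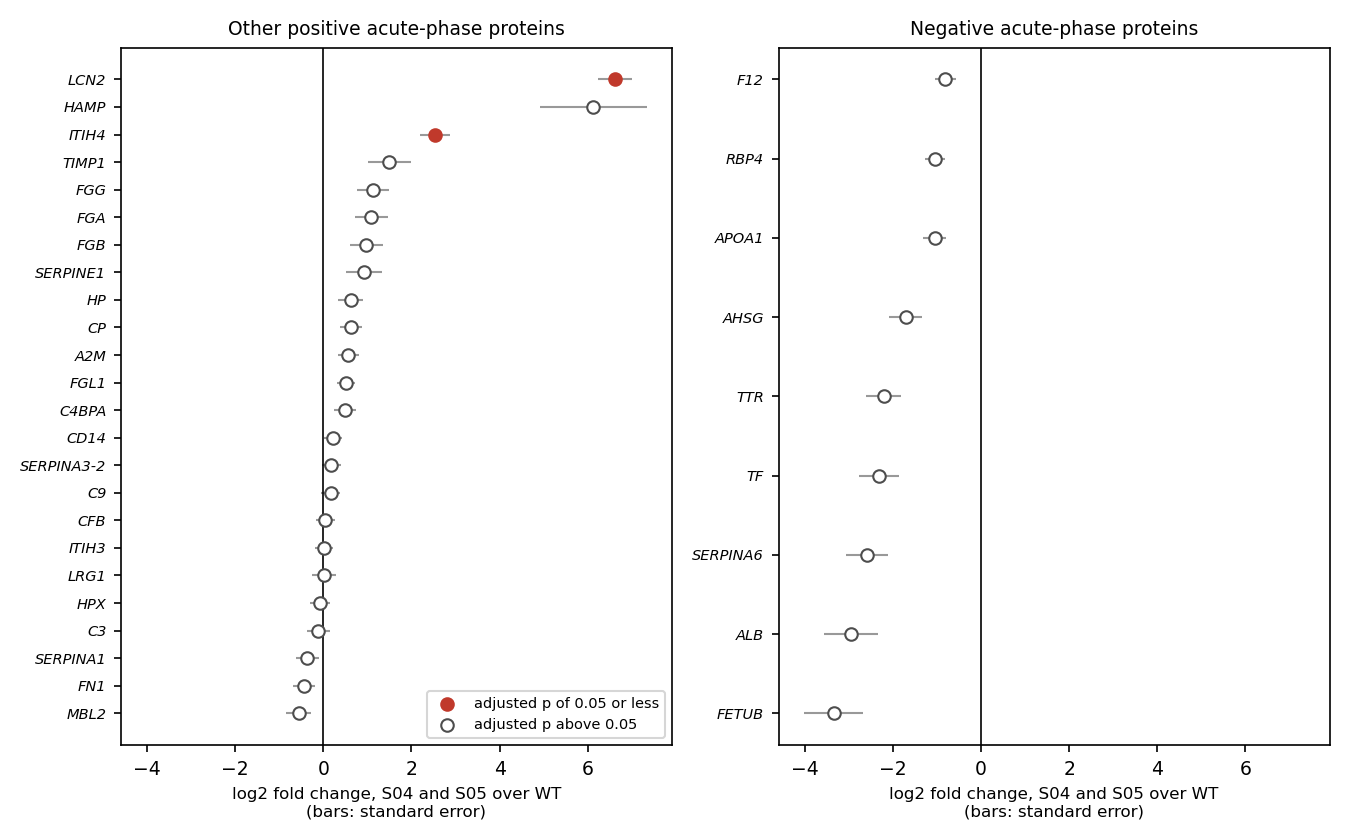
edgeR log2FC for S04 and S05 relative to WT (horizontal axis, bars of 1 standard error) for the tested genes of the other positive (left) and the negative (right) acute-phase proteins. Filled points have an adjusted p of 0.05 or less, LCN2 and ITIH4 alone, and all 9 negative acute-phase proteins lie below 0.

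The next list holds the cytokines, receptors and factors that drive the acute phase. Of its 27 genes 24 were tested and 0 passed edgeR, with a median log2FC of 0.26. At unadjusted p under 0.05, 5 were higher and 0 lower, beside 8.88% and 12% of all genes. DESeq2 called OSMR and STAT3 higher, beside 9.57% of all genes called in either direction. OSMR, the receptor of oncostatin M, had 62.69 and 69.9 CPM in S04 and S05 and 62.67 CPM in S03 against 23.2 to 39.95 CPM in WT, so that here S03 did not stand apart (log2FC 1.01, edgeR adjusted p = 0.0914). STAT3, the factor downstream of the IL-6 family, had 282.7 and 266.3 CPM in S04 and S05 and 210.6 CPM in S03 against 143.1 to 167.0 CPM in WT (log2FC 0.80, edgeR adjusted p = 0.0777). IL6 and IL1A were too low to be tested, with IL6 at 0 to 0.359 CPM in every liver. IL1B was below 1 CPM in all 6 (log2FC 1.52, edgeR adjusted p = 0.193, and 0.64 in limma on log2(TPM + 1)).

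Receptors and partners of the 6 proteins showed no common direction. Of 15 listed genes 13 were tested, with a median log2FC of -0.07 and 0 passing edgeR (3 higher and 2 lower at unadjusted p under 0.05, beside the same shares). CD36, a scavenger receptor that binds serum amyloid A, had 15.7 and 21.38 CPM in S04 and S05 and 9.96 CPM in S03 against 3.04 to 6.83 CPM in WT (log2FC 1.93, edgeR adjusted p = 0.0594, 7.13e-05 from DESeq2), and it passed edgeR without WT3 (2.24, adjusted p = 0.0485). APOA1, the main protein of high-density lipoprotein, which serum amyloid A can displace, had 2683.5 and 2601.2 CPM in S04 and S05 against 4494.9 to 6657.6 CPM in WT (log2FC -1.05, edgeR adjusted p = 0.0981, 0.000485 from DESeq2). TLR2, a receptor that serum amyloid A can engage, and FCGR1A, an Fc receptor that binds CRP, had log2FCs of 1.12 and 1.34 (adjusted p = 0.196 and 0.184 from edgeR), and TLR2 had 0.38 without S04. The partners of LBP, CD14 and TLR4, had log2FCs of 0.21 and 0.19 (adjusted p = 0.604 and 0.751 from edgeR).

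Markers of the liver's cell types differed between the same libraries, and their part in the results was not tested. The summed level of 11 hepatocyte markers was 28024.2 CPM in S04, 30285.3 CPM in S05 and 50833.7 CPM in S03, against 66210.8 to 167230.9 CPM in WT. ALB and other negative acute-phase genes make up most of that sum, and 0 of the 11 passed edgeR. At unadjusted p under 0.05, 5 were lower (12% of all genes), and DESeq2 called 5 lower (9.57% of all genes called). The largest differences were those of ALB, TF, for transferrin (log2FC -2.31, edgeR adjusted p = 0.0699), and TTR (-2.21, 0.0608).

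Neutrophil markers, 10 in the table, summed to 42.69 CPM in S04, 45.55 CPM in S05 and 79.43 CPM in S03 against 20.41 to 30.04 CPM in WT. FCN2 alone made up most of this sum in every library, with 64.37 CPM in S03. Without FCN2, left out after its values were seen, the other 9 summed to 17.97 CPM in S04 and in S05, 15.06 CPM in S03 and 6.68 to 9.05 CPM in WT, with the granule gene ELANE at 0 in S04 and S05 and PADI4 at 0 in WT1. Of 7 tested, 0 passed edgeR (3 higher at unadjusted p under 0.05, beside 8.88% of all genes). DESeq2 called S100A8 and CSF3R higher, beside 9.57% of all genes called in either direction. The log2FC was 2.37 for S100A8, 1.67 for CSF3R and 1.37 for S100A9 (edgeR adjusted p = 0.0754, 0.0740 and 0.185). LCN2, among the genes listed above, is also known as a neutrophil granule gene.

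The 10 macrophage markers summed to 1068.5 CPM in S04, 1360.6 CPM in S05 and 985.3 CPM in S03 against 1383.8 to 2083.9 CPM in WT. Of 10 tested, edgeR called 1 lower, beside 0.792% of all genes called. At unadjusted p under 0.05, 3 were lower (12% of all genes). The edgeR call was the Kupffer cell lectin CLEC4F (log2FC -2.14, adjusted p = 0.0399). That call was lost without WT1 (0.0628) or WT2 (0.0972) and with library totals (0.0507). Without S04 or S05 a single ASGR1+/- library remained, too few to judge the call, and the log2FC was -2.12 and -2.15. DESeq2 called 3 lower, CLEC4F with MARCO (log2FC -1.55, edgeR adjusted p = 0.0906, and 0.0456 without WT3) and CD5L (-0.94, 0.10). Over all genes DESeq2 called 9.57%, in either direction.

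The 10 lymphocyte markers summed to 57.42 and 48.15 CPM in S04 and S05 and 91.65 CPM in S03 against 72.51 to 162.3 CPM in WT. Of 8 tested, edgeR called 1 lower, beside 0.792% of all genes called. At unadjusted p under 0.05, 4 were lower (12% of all genes). The call was the natural killer receptor gene KLRD1 (log2FC -4.37, adjusted p = 0.0150), and it was lost without WT2 (0.0613). Without S04 or S05 a single ASGR1+/- library remained, too few to judge the call, and the log2FC was -4.93 and -3.955. KLRD1 had 0.491 and 0.248 CPM in S04 and S05 and 0.849 CPM in S03 against 7.18 to 8.34 CPM in WT. With all 6 libraries edgeR again called it lower (log2FC -3.85, adjusted p = 0.0477), beside 0.136% of all genes. That call was lost in 7 of 15 alternatives. DESeq2, which tested 9, called KLRD1 and CD8A lower, beside 9.57% of all genes called in either direction. CD8A had a log2FC of -1.43 (edgeR adjusted p = 0.112) and CD3D had -1.15 (0.198). Blood markers summed to 3.37 CPM in S04 and 17.97 CPM in S05, but 796.5 CPM in S03 and 84.18 to 247.5 CPM in WT, most of it HBB. Of 6 tested without S03, 0 passed edgeR, and 6 were lower at unadjusted p under 0.05 (12% of all genes). DESeq2 called HBB, ALAS2 and SLC4A1 lower (9.57% of all genes called). The log2FCs of HBB, AHSP and ALAS2 were -3.98, -3.53 and -3.28 (edgeR adjusted p = 0.0754, 0.137 and 0.0944). S03 was the liver with most of this RNA and with the lowest LBP and ORM1, and whether these are linked was not tested.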

How the data were processed

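RNA of 6 pig livers, 1 library per animal, was read on the BGISEQ platform, and libraries were grouped by the genotype in their labels. The submitters' processing notes name HISAT2 2.0.4 and Bowtie2, with Sscrofa11.1 as the build. In the deposited table each library has an estimated count per gene, not normalized, an FPKM and a TPM, all as the authors made them. The tool that estimated the counts was not given in the sources used here, and 12% of the values were not whole (farther than 0.004 from a whole number), as where reads are divided between similar genes. Group averages and the authors' own comparisons were not used. Gene positions came from the RefSeq table of Sscrofa11.1, in which all 17109 gene IDs were found.

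Estimated counts were rounded and tested in edgeR 4.0.16 (R 4.3.3) by quasi-likelihood (TMM scaling, filterByExpr with a minimum count of 10, Benjamini-Hochberg adjustment over all genes tested, 13382 without S03 and 13243 with all 6 libraries). A gene was called at an adjusted p of 0.05 or less. Standard errors were obtained by dividing the log2 fold change, without its sign, by the root of F. CPM used the TMM factors of all 6 libraries. DESeq2 1.42.0, limma-voom and limma 3.58.1 on log2(TPM + 1) and log2(TPM + 0.1), other scalings and filters, and each library left out in turn were the alternatives. Summing SAA2 with SAA3 and CRP with gene-CRP-2 was added after seeing the data. Where S04 or S05 was left out of the main comparison, the lone ASGR1+/- library was assumed to vary like WT. The code was tested on simulated data.

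The 6 genes and the lists of related genes were chosen with earlier results of these data known. Genes named from a list were those called by edgeR and the 3 with the largest fold change among those whose S04 and S05 both lay above, or both below, all WT libraries. HP, FGA, FGB, FGG, STAT3, FN1, FCN2, ELANE, PADI4, SLC4A1, APOA1, CD14, TLR4, IL6 and IL1A were named in addition. LOC102165880, APCS and gene-CRP-2 were too, and all were named for their role or after their values were seen. For each of the 6 genes the 3 rows with the highest Pearson correlation of log2 CPM (prior count 2) were named, among genes with an SD of at least 0.5. The library totals leave counting error small for all 6 genes, and the number of animals limits the precision.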

Additional observations from a re-analysis of the deposited data

How the results depend on the processing

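Without S03, SAA3 passed the threshold under DESeq2 (log2 fold change 3.36), in limma on log2(TPM + 0.1) and log2(TPM + 1) (3.78 in both) and when summed with SAA2 (3.27), and ORM1 passed under DESeq2 (-0.81). Members called higher were then 2 under DESeq2 and 2 under each limma fit on TPM, and members called lower were 1 under DESeq2. DESeq2 called 10 of the other positive acute-phase proteins higher. Of all genes, DESeq2 called 9.57% in either direction, and limma on log2(TPM + 0.1) and log2(TPM + 1) called 230 and 183 of 13382. With all 6 libraries DESeq2 called SAA2 (2.69) higher and ORM1 (-0.92) lower, 1 member in each direction. It also called 3 of the other positive acute-phase proteins, beside 5.65% of all genes called, while limma-voom turned LBP to -0.008.

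With each library left out in turn, the log2 fold change without S03 ranged from 2.80 to 3.53 for SAA2, 2.98 to 4.29 for SAA3, 1.09 to 2.88 for CRP and -1.03 to 1.49 for SAA4. Leaving out WT1, WT2 and WT3 gave 2, 0 and 0 members called higher and 2, 2 and 1 of the other positive acute-phase proteins. The whole table then had 53 of 13230, 5 of 13289 and 115 of 13281 genes called. From all 6 libraries the log2 fold change ranged over 2.07 to 3.16 for SAA2, 2.44 (without S05) to 3.76 (without WT1) for SAA3, 0.54 (without S05) to 2.45 (without WT3) for CRP, -0.071 to 1.49 for SAA4 and -0.15 to 0.47 for LBP, with 0 to 1 members called higher and 0 to 2 of the list. The 1 member and the 2 of the list were called without S03, where 106 of 13382 genes were called. Each other library left out gave 0 of either, with 1 to 4 genes called in the whole table. The sign of SAA4 turned without S05, and with all 6 libraries also without WT1 (-0.013). The sign of LBP with all 6 libraries turned without S04 (-0.036), S05 (-0.15) or WT2 (-0.058). The cause was not tested.

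Over all genes the 106 edgeR calls without S03 became 1307 under DESeq2, 230 and 183 in limma on log2(TPM + 0.1) and log2(TPM + 1), and 2, 0, 53 and 5 without S04, S05, WT1 and WT2. The 18 calls from all 6 libraries became 816 under DESeq2, 36 in limma-voom, 63 with no filter, and 3 and 4 with library totals and upper-quartile factors. They were 1, 1, 4, 1 and 4 without S04, S05, WT1, WT2 and WT3. Library totals without TMM moved the median log2 fold change of all genes to 0.105 without S03 and 0.183 with all 6 libraries, and with them 33 genes were called higher and 57 lower without S03, against 29 and 77 with TMM. No paired analysis was possible because the libraries of the groups carry no shared animal or batch number.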
